A study of Rattus norvegicus with 176 samples.

Results

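Hepatic fatty acid synthesis was followed through 5 genes in a study of long-term clofibric acid in rat liver, namely the transcription factor gene Srebf1 and the enzyme genes Acly, Acaca, Fasn and Me1. They were listed by name for their place in the pathway, with earlier results of these data known, including the calls of several members. They are 5 of the 10411 genes that the array annotation names. Their probe sets were found by that annotation. Where a gene had more than 1 probe set, the brightest by mean log2 over the arrays was taken. The 5 genes had 9 of the 15922 probe sets, and all 9 passed the filter on low values, so every gene was tested in every comparison.

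Total RNA of liver sections from F344 rats, an inbred strain, was measured on 176 Affymetrix arrays. Clofibric acid (CA) belongs to the fibrates, lipid-lowering drugs that act through the nuclear receptor PPARalpha. The rats were in 4 arms, namely CA, DEN-CA (both agents), DEN (usually short for diethylnitrosamine, a carcinogen of the liver) and control. Each arm had 5 rats at each of 5j, 1m, 3m, 9m and 12m, and the CA and control arms also had 5 each at 18m. The label of 6 more CA rats was 18, with no unit, and 5 DEN rats and their 5 controls carried the time -8. Groups tagged rev held 4 CA rats and 3 controls at 18m, 4 controls at 12m, and 5 DEN-CA rats and 6 DEN rats labelled 12. These 148 untagged sections made up 30 groups, 1 section a rat. Another 23 sections tagged TU came from 16 of these rats, 9 of the CA arm and 7 of the DEN-CA arm, and 5 sections tagged PERI from 5 of them. What j, rev, TU and PERI stand for is not in the labels, which gave no sex or age and named a dose of 5000 ppm CA even in the titles of controls, so the group names were used. They call the animals separate rats, and p-values measure the spread between these rats.

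The liver makes fatty acids from citrate that leaves the mitochondrion. ATP citrate lyase (Acly) splits it into acetyl-CoA, acetyl-CoA carboxylase (Acaca) carboxylates that to malonyl-CoA, and fatty acid synthase (Fasn) builds palmitate from both, using NADPH that malic enzyme (Me1) helps to supply. SREBP1, the product of Srebf1, is made as a membrane-bound precursor that SCAP escorts to the Golgi for cleavage and that INSIG proteins hold back. The released part enters the nucleus and switches on genes of fatty acid synthesis, mainly in the fed state under insulin, while PPARalpha is best known in liver for switching on fatty acid oxidation.

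The promoters are shown because 2 of the genes, Srebf1 and Me1, moved with the drug at nearly every time and Acly at few. RefSeq's table for the GRCr8 assembly held 3 of the 5 genes. Each sequence runs 5′ to 3′ on the gene's strand, from 250 bases before the annotated start to 50 after it. Capitals mark GC boxes (GGGCGG on either strand) and CCAAT boxes (CCAAT on either strand). The windows are chr10:45529115-45529414 for Srebf1, chr10:85963582-85963881 for Acly and chr8:96540195-96540494 for Me1, all on the minus strand.
Srebf1: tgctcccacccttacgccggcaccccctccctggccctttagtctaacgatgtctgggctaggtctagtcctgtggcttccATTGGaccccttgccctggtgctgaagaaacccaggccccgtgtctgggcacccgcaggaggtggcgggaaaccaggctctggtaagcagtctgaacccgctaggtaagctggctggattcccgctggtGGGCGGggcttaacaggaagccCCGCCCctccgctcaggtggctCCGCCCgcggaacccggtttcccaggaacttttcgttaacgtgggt
Acly: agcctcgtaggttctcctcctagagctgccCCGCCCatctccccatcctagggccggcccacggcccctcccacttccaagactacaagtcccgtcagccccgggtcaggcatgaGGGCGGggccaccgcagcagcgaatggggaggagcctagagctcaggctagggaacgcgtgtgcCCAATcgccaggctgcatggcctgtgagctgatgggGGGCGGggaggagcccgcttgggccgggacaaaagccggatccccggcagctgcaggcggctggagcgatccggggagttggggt
Me1: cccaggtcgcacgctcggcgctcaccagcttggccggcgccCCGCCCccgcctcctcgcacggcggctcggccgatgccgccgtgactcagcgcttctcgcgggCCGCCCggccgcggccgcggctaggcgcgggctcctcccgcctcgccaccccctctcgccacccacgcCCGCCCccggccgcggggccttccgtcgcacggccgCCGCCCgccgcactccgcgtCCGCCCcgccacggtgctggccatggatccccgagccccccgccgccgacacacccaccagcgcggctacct
The GC box was found 3 times in Srebf1, 3 times in Acly and 5 times in Me1, and 33.1% of 33469 RefSeq promoters of the same length held it at least once. A CCAAT box lay in Srebf1 and in Acly, against 37.5% of promoters. Neither the sterol regulatory element written as TCACNCCAC (1.12% of promoters) nor the E-box CACGTG (6.42%) was in any of the 3 windows. The same was true of AGGTCANAGGTCA (0.0538%), the spaced repeat that PPARalpha is known to bind, and of its half-site AGGTCA (16.2%). All were searched on both strands, matches may overlap, and a match says nothing of binding.

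Array medians of the deposited intensities lay between 25.35 and 187.25, so each array was scaled to the median of these medians, 99.35. "Signal" below is the scaled intensity, which compares samples for 1 gene but not genes with each other. Fold changes are on the log2(signal + 25) scale and are given ± their standard error. A gene "rose" or "fell" where its p-value from limma, adjusted over all tested probe sets after Benjamini and Hochberg, was below 0.05. The 5 hepatocyte markers on the array (of 6 listed) overlapped in summed signal at all 11 drug times, over which they reached 36536 to 136524 in CA and DEN-CA rats and 43558 to 109817 in control and DEN rats. In whole sections, fewer cells of a type and less RNA per cell cannot be told apart. The untagged section of CA rat 4137 at 12m and that of CA rat 4127 at 3m were among those least like their own group, with mean correlations of 0.947 and 0.942 over all probe sets.

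The first question was how CA moved these genes over time. Me1 rose at all 11 time points of the CA and DEN-CA arms, Srebf1 at 10, Acaca at 7, Fasn at 5 and Acly at 2. Of these 55 tests, 35 were called higher and 0 lower. In the CA arm, 3 of the 5 genes rose at 5j, when 11.2% of all tested probe sets were called in either direction. The count was 2 at 1m (14.4% of all), 4 at 3m (14.2%), 2 at 9m (6.78%), 5 at 12m (11.7%) and 1 at 18m (6.79%). After DEN, 4 of the 5 rose at 5j (10.5% of all), 3 at 1m (16.2%), 5 at 3m (14.3%), 3 at 9m (6.99%) and 3 at 12m (7.04%). The median log2 fold change of the 5 genes ran from 0.48 at 9m to 1.63 at 12m in the CA arm, beside 0.00 and -0.01 over all probe sets. After DEN it ran from 0.56 at 9m to 2.07 at 3m, beside -0.05 and 0.03.

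Markers of other cells moved at these times too. The summed signal of the 4 cholangiocyte markers on the array (of 5 listed) was higher in every CA or DEN-CA rat than in every reference rat of its time at all 11, with 298 to 846 and 171 to 376 over all times. Of the 3 that were tested, Epcam rose at 11 of 11 time points (0.53 to 1.30) and Krt19 and Spp1 at 0. The sum of the 8 acinar markers stood apart and higher at 9 of 11 (714 to 1786, against 208 to 911), and Cela1 rose at 9 (0.95 to 3.49) while the other 3 tested were called at 0. The sum of the 6 stellate cell markers stood apart and lower at 8 of 11 (549 to 1393, against 732 to 1890), with Col3a1 and Rgs5 called lower at 3 each and Lrat at 1.

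The sum of the 3 Kupffer cell markers on the array (of 6 listed) stood apart at 1 of 11 times, 1m under CA, at 1349 to 2012 in CA rats and 2203 to 3780 in controls, and Clec4f (-0.85), C1qa (-0.78) and Cd68 (-0.66) all fell there. C1qa also fell at 3m (-0.55) and Clec4f at 12m (-0.83) under CA. Of the hepatocyte markers, Apoa1 fell at 5j (-1.10) and 1m (-0.87) under CA and at 5j under DEN-CA (-1.40), and Alb rose at 3m under CA (0.79). The adipocyte sums overlapped at all 11 times, and Fabp4 rose at 12m under CA (1.03) and DEN-CA (1.49). The part of these cells in the drug effects was not tested.

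**Figure D1:**
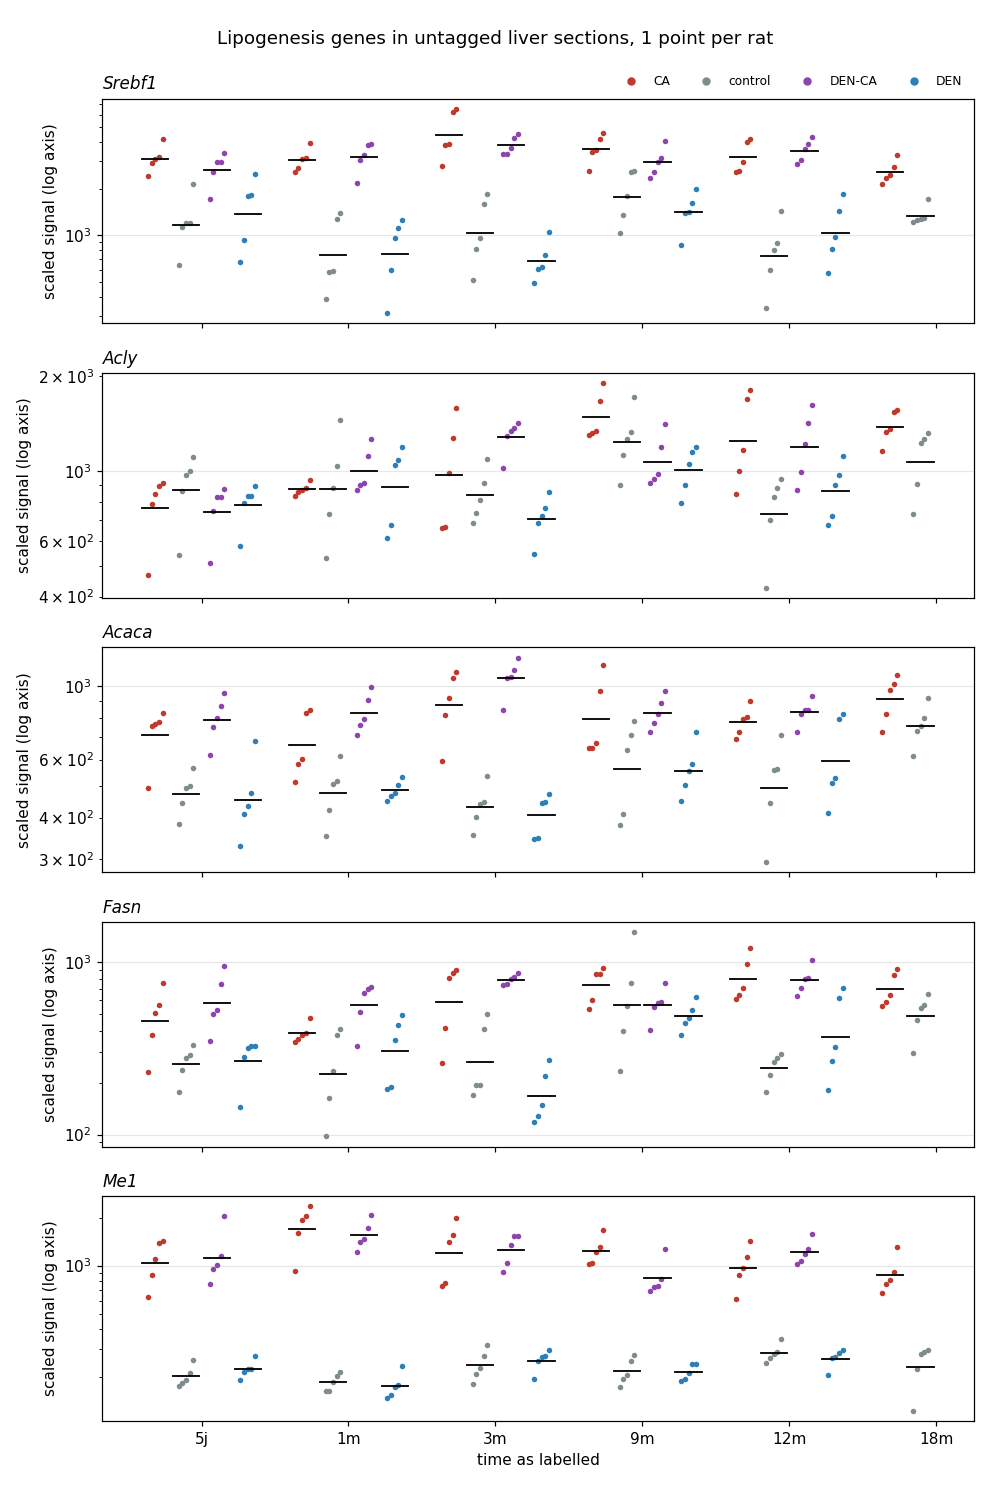
Scaled signal of each gene (log axis) against label time for single rats, with 1 point per rat and a bar at the group's geometric mean, for the CA, control, DEN-CA and DEN arms. Me1 points of the CA and DEN-CA arms lie above all control and DEN points at every time, while Acly points of the 4 arms overlap at most times.

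Srebf1 stood at signals of 2408, 2925, 3133, 3228 and 4171 in CA rats at 5j, against 643, 1129, 1197, 1203 and 2143 in controls. Every CA rat was above every control, and the fold change was 1.39 ± 0.32 on the log2 scale (2.62-fold, adjusted p = 8.2e-04). It was 1.99 at 1m (3.98-fold), 2.07 at 3m (4.19-fold) and 1.02 at 9m (2.03-fold, adjusted p = 0.0297). At 12m the CA rats had 2576, 2622, 2991, 4019.9 and 4162, against 339.5, 602, 808, 897 and 1442 in controls. The groups again did not overlap, and Srebf1 rose by 2.08 ± 0.32 (4.24-fold, adjusted p = 1.9e-07). At 18m CA rats had 2135, 2354, 2454, 2755 and 3294 and controls 1223, 1249, 1272, 1287 and 1714. No CA rat was as low as a control there, but 0.93 ± 0.32 missed the threshold (adjusted p = 0.0563).

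The control level of Srebf1 varied as well as its level under CA. Control means ran from 817 ± 410 at 12m to 1873 ± 704 at 9m (SD, n = 5 each), and the smaller fold change at 9m came with the highest control mean, beside 3677 ± 751 in CA rats. The 9m call was lost when control rat 4023 or 4027, or CA rat 4132 or 4135, was left out (log2 0.93, 0.84, 0.94 and 0.97). At 18m Srebf1 passed once control rat 4036, the highest of its group, was left out (1.02 ± 0.34, adjusted p = 0.0441).

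After DEN, Srebf1 rose at all 5 times. At 3m DEN-CA rats had 3332, 3356, 3684, 4265 and 4531, against 495, 610.0, 627, 748 and 1048 in DEN rats, with a wide gap between the groups. This was its highest fold change in either arm, 2.43 ± 0.32 (5.40-fold, adjusted p = 9.9e-10). The others were 0.93 at 5j (adjusted p = 0.0408), 2.03 at 1m, 1.06 at 9m (adjusted p = 0.0225) and 1.73 at 12m. The 5j call was lost without any 1 of 6 rats, DEN rats 4055 and 4056 and DEN-CA rats 4086, 4087, 4088 and 4089, at log2 values between 0.68 and 0.94. At 9m it was lost without DEN rat 4070 (0.89) or DEN-CA rat 4102 (0.95).

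Acly, the enzyme that makes cytosolic acetyl-CoA, changed little. CA rats at 1m had 832, 855, 873, 880.4 and 934, against 529.9, 731, 885, 1037 and 1454 in controls. The CA rats lay inside the control range, and the fold change was -0.01 ± 0.20, with a 95% interval from -0.40 to 0.39. Acly rose at 12m in the CA arm, where CA rats had 848, 1002, 1165, 1687 and 1806 and controls 427, 701, 827, 885 and 945. The groups overlapped by the lowest CA rat, at 0.75 ± 0.20 (1.68-fold, adjusted p = 0.00498), and without control rat 4028 the call was lost (0.57, adjusted p = 0.062). Acly had -0.08 and did not pass with control rev rats of 12m as the reference (adjusted p = 0.869). After DEN it rose at 3m, with 1020.3, 1296, 1342, 1366 and 1419 in DEN-CA rats and 544, 686, 718, 764 and 859.9 in DEN rats. There the groups were apart, at 0.83 ± 0.20 (1.78-fold, adjusted p = 0.00133). At the other 9 time points Acly lay between -0.19 and 0.46 and did not pass.

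Acaca, whose product malonyl-CoA is both the building block of fatty acids and an inhibitor of their entry into mitochondria, rose by moderate amounts. At 3m CA rats had 592, 821, 922, 1057 and 1103, against 355, 401, 439.7, 447 and 535 in controls. No value overlapped, and the fold change was 0.98 ± 0.17 (1.98-fold, adjusted p = 6.5e-06). It also rose at 5j (0.57, adjusted p = 0.0172) and 12m (0.64, adjusted p = 0.00607), and reached 0.46, 0.48 and 0.26 at 1m, 9m and 18m without passing. The second Acaca probe set did not overlap at 1m, with 156 to 239 in CA rats and 43.0 to 77.4 in controls. At 9m and 18m it overlapped. The 5j call was lost without control rat 4008 (0.50) and the 12m call without control rat 4029 (0.46). The 12m value was -0.15 and did not pass with control rev rats of 12m as the reference (adjusted p = 0.672). Under DEN-CA, Acaca rose at 5j (0.77), 1m (0.75), 3m (1.32 ± 0.17, 2.5-fold, adjusted p = 1.2e-09) and 9m (0.56, adjusted p = 0.027), with 0.47 at 12m (adjusted p = 0.0792). The 9m call was lost without any 1 of DEN rats 4068, 4070 and 4072 and DEN-CA rats 4102 and 4104 (0.49 to 0.56).

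Fasn, which assembles palmitate, rose at 3m and 12m in the CA arm. At 12m CA rats had 614, 642, 706, 976 and 1215, against 176, 222, 264, 277 and 294 in controls. The lowest CA rat was above each of these controls, and Fasn rose by 1.63 ± 0.31 (3.09-fold, adjusted p = 4.8e-05). With control rev rats of 12m as the reference, Fasn had -0.03 and did not pass (adjusted p = 0.969). At 3m it rose by 1.07 ± 0.31 (adjusted p = 0.0102), with CA rats at 261, 415, 812, 863 and 899 and controls at 170.1, 193, 193, 409 and 501. Those groups overlapped, and the call was lost without CA rat 4130 (0.92, adjusted p = 0.0519). At 5j, 1m, 9m and 18m the log2 fold changes were 0.77, 0.70, 0.36 and 0.49, none past the threshold.

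The control rats of 9m had the widest Fasn range of the CA and control groups, 235, 399.8, 556, 753 and 1497, against 538, 608, 855, 856 and 928 in CA rats of that time. In the DEN-CA arm Fasn had 742, 744, 797, 819 and 867 at 3m, against 118, 129, 148, 219 and 272 in DEN rats. The DEN-CA rats were close together and far above the DEN rats, at 2.07 ± 0.31 (4.21-fold, adjusted p = 1.0e-07). Fasn also rose at 5j (1.04, adjusted p = 0.0155) and 12m (1.03, adjusted p = 0.0237), and had 0.83 at 1m (adjusted p = 0.0542) and 0.21 at 9m. The 5j call was lost without DEN rat 4056 or DEN-CA rat 4087 or 4088 (0.84 to 0.96), and the 12m call without DEN rat 4074, 4075 or 4076 or DEN-CA rat 4108 (0.79 to 0.98). With DEN rev rats as the reference, the 12m value was 0.51 and did not pass (adjusted p = 0.299).

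Me1 encodes the cytosolic malic enzyme and is a known PPARalpha target in rodents. It separated the CA and DEN-CA groups without rev completely from the control and DEN groups. At 1m CA rats had 921, 1594, 1919, 2052 and 2349, against 164, 164, 186, 205 and 215 in controls. The groups were far apart, and this was the largest fold change of the 55 tests, at 3.02 ± 0.20 (8.12-fold, adjusted p = 5.4e-26). The fold change was 2.22 at 5j and at 3m, 2.37 at 9m, 1.69 at 12m (3.22-fold) and 1.81 at 18m (3.50-fold). Under DEN-CA it was 2.20 at 5j, 2.97 at 1m (7.86-fold), 2.18 at 3m, 1.83 at 9m and 2.11 at 12m. Over all times the 61 rats of the CA and DEN-CA groups without rev lay between 579.6 and 2349, and the 78 control and DEN rats, with and without rev, between 123 and 347.

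**Figure D2:**
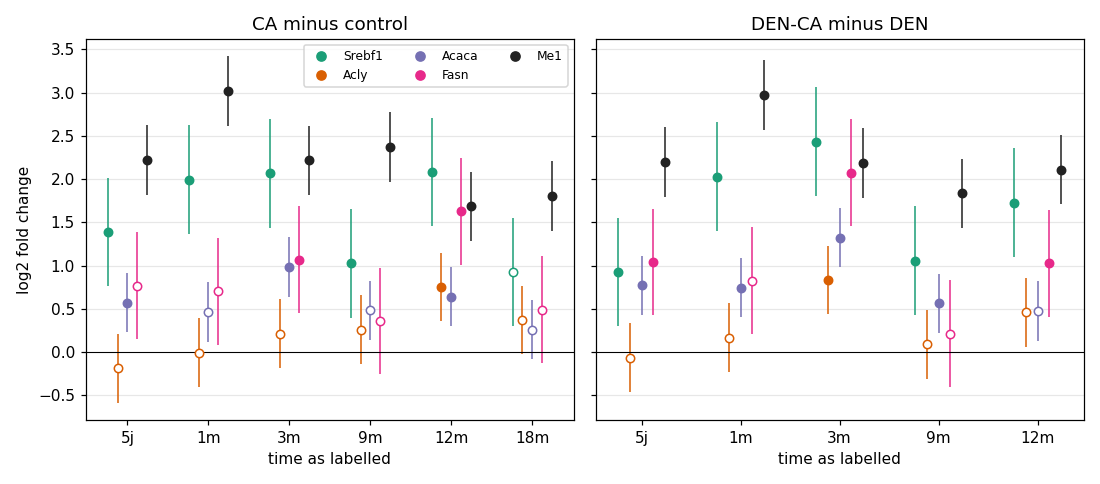
Log2 fold change of each gene at each label time, with bars for the 95% interval, for CA against control and DEN-CA against DEN. Filled points passed an adjusted p of 0.05, all points of Srebf1, Acaca, Fasn and Me1 lie above 0, and those of Me1 lie between 1.69 and 3.02.

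A B suffix in the titles, which the labels do not explain, was unevenly spread over groups, so the comparisons were repeated within arrays with it and without it. Me1 rose in both subsets at 5j, 1m, 3m and 9m in the CA arm (2.28, 2.24, 2.78 and 2.26 with the suffix, 2.25, 3.18, 1.996 and 2.40 without) and in the DEN-CA arm (2.45, 3.19, 2.06 and 1.75 with, 1.96, 2.43, 2.36 and 1.62 without). Srebf1 in the CA arm had 1.34, 2.37, 1.15 and 1.31 with the suffix and 2.13, 1.75, 2.60 and 0.95 without, of which 1.15, 1.31 and 0.95 did not pass. In the DEN-CA arm it had 1.38, 1.998, 2.23 and 1.80 with the suffix, all past the threshold, and 0.30, 1.74, 2.54 and 0.68 without, of which only 2.54 passed. Some of these subsets hold 1 array in a group, which was assumed to vary like the other groups.

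Other probe sets of the same genes were read on the same arrays. Over the 148 untagged sections the second probe set correlated with the first at 0.960 for Srebf1, 0.966 for Me1, 0.816 for Fasn and 0.547 for Acaca, as a description over arrays that share group differences. The second Srebf1 probe set passed at 18m under CA (1.26). The second Acaca probe set did not pass at 12m under CA or at 5j under DEN-CA, so the Acaca calls at those times rest on 1 probe set. They were not the only such calls. With the other probe sets, fewer genes were called under DEN-CA, 2 in place of 4 at 5j and 2 in place of 3 at 9m. At least 1 further call at each of these DEN-CA times therefore rests on 1 probe set. At 5j the second probe sets had mean log2 values in DEN-CA and DEN rats of 8.03 and 7.72 for Fasn and 10.49 and 9.63 for Srebf1. At 9m they had 7.65 and 7.41 for Acaca and 10.91 and 9.75 for Srebf1. Acly has 1 probe set, so its calls rest on 1 as well.

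Whether prior DEN changed the response was asked by the difference of the drug effects between arms, averaged over the 5 shared times. None of the 5 genes passed, beside 0.0403% of all probe sets. The differences, DEN-CA effect minus CA effect, had 95% intervals from -0.47 to 0.32 for Srebf1, -0.16 to 0.34 for Acly, -0.07 to 0.36 for Acaca, -0.26 to 0.52 for Fasn and -0.30 to 0.21 for Me1 on the log2 scale. DEN without CA was set against control at 6 times, and none of the 5 genes passed at -8 (0.307% of all probe sets called), 5j (0.0403%), 1m (0%), 3m (0.00807%), 9m (0%) or 12m (0%). Over all probe sets, 548 at 1m, 458 at 9m and 332 at 12m had an unadjusted p under 0.05. The log2 fold changes of the 5 genes under DEN alone lay between -0.59 (Fasn, 3m) and 0.57 (Fasn, 12m).

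The CA effect was also compared between its first and last times. None of the 5 genes passed for 18m minus 5j (0.726% of all probe sets) or 12m minus 5j (2.07%) in the CA arm, or for 12m minus 5j in the DEN-CA arm (0.888%). Acly came nearest, with 0.94 ± 0.28 for 12m minus 5j in the CA arm (adjusted p = 0.0529), and it passed without any 1 of control rats 4009, 4031 and 4037 and CA rats 4117, 4121, 4140 and 4141 (1.00 to 1.11). Between control rats of 18m and 5j, Acaca rose by 0.66 ± 0.17 (1.58-fold, adjusted p = 0.00827), beside 7.22% of all probe sets. Control rats of 18m had 616, 730.5, 759, 803 and 921, against 384, 443, 490.4, 498 and 564 in those of 5j, with no overlap. Fasn had 0.86 ± 0.31 in the same comparison (adjusted p = 0.071) and passed without control rat 4036 (1.03, adjusted p = 0.0394).

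Groups tagged rev were set against the group of the same arm without the tag and against the rev controls. In the CA arm at 18m, 3 of the 5 genes fell (14.7% of all probe sets called). Srebf1 had 716, 746, 1034 and 1418 in CA rev rats, against 2135, 2354, 2454, 2755 and 3294 in CA rats of 18m. All rev rats were below all others, at -1.42 ± 0.34 (adjusted p = 0.00115). Srebf1 was lower in control rev rats than in controls of 18m as well (-1.19, adjusted p = 0.0222). Me1 had 252, 256, 257 and 324 in CA rev rats, against 676, 769, 813, 914 and 1304 in CA rats, at -1.60 ± 0.21 (adjusted p = 4.5e-09). Those groups did not overlap either.

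Acaca fell by 0.57 ± 0.18 (adjusted p = 0.0215), a call lost without any 1 of CA rats 4143 and 4150 and CA rev rats 4149 and 4151. Its second probe set had a mean signal of 85.5 in CA rev rats, against 192.6 in CA rats of 18m. That probe set was low in control rev rats too, at 82.8 against 162.5 in controls of 18m, and in CA rats labelled 18 (87.1). The cause was not tested. Acly and Fasn had -0.24 and -0.12 and did not pass. In the DEN-CA arm, 2 of the 5 genes fell in rats tagged rev (12.8% of all probe sets). Srebf1 had 679.7, 854, 879, 956 and 2570.5 in DEN-CA rev rats, against 2894, 3053, 3585, 3889 and 4325 in DEN-CA rats of 12m, at -1.72 ± 0.32 (adjusted p = 3.3e-05). Only rat 4113, at 2570.5, came near the range of the others. Me1 had 184, 237, 257, 378 and 438 in DEN-CA rev rats, against 1029.6, 1075, 1183, 1262 and 1588, at -1.997 ± 0.203 (adjusted p = 2.2e-14), again with no overlap.

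Other cells' markers moved in the same comparisons. The summed Kupffer cell markers were 3785 to 5672 in CA rev rats, against 2564 to 3105 in CA rats of 18m, with Clec4f (0.78) and C1qa (0.91) called higher. In DEN-CA rev rats they were 2486 to 5011, against 1720 to 2501 in DEN-CA rats of 12m, with Cd68 (0.58) and C1qa (0.97) called higher. The Kupffer cell sums were apart in the CA arm and overlapped in the DEN-CA arm. The stellate cell sum was higher and apart in both arms (892 to 1076 against 549 to 792, and 939 to 1430 against 774 to 844). The cholangiocyte sum was lower and apart (308 to 353 against 486 to 621, and 272 to 332 against 469 to 566), as was the acinar sum (499.6 to 577 against 848 to 1354, and 401 to 741 against 973 to 1354). Hepatocyte markers stood apart in the CA arm (62568 to 75046 against 36536 to 62542), where Apoa1 rose by 0.65, and overlapped in the DEN-CA arm. The adipocyte sum was higher and apart in the CA arm (495 to 539 against 300 to 437), with 1 of the 3 markers tested called higher. In the DEN-CA arm it overlapped (252 to 490 against 330 to 444). The part of these cells in the results was not tested.

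**Figure D3:**
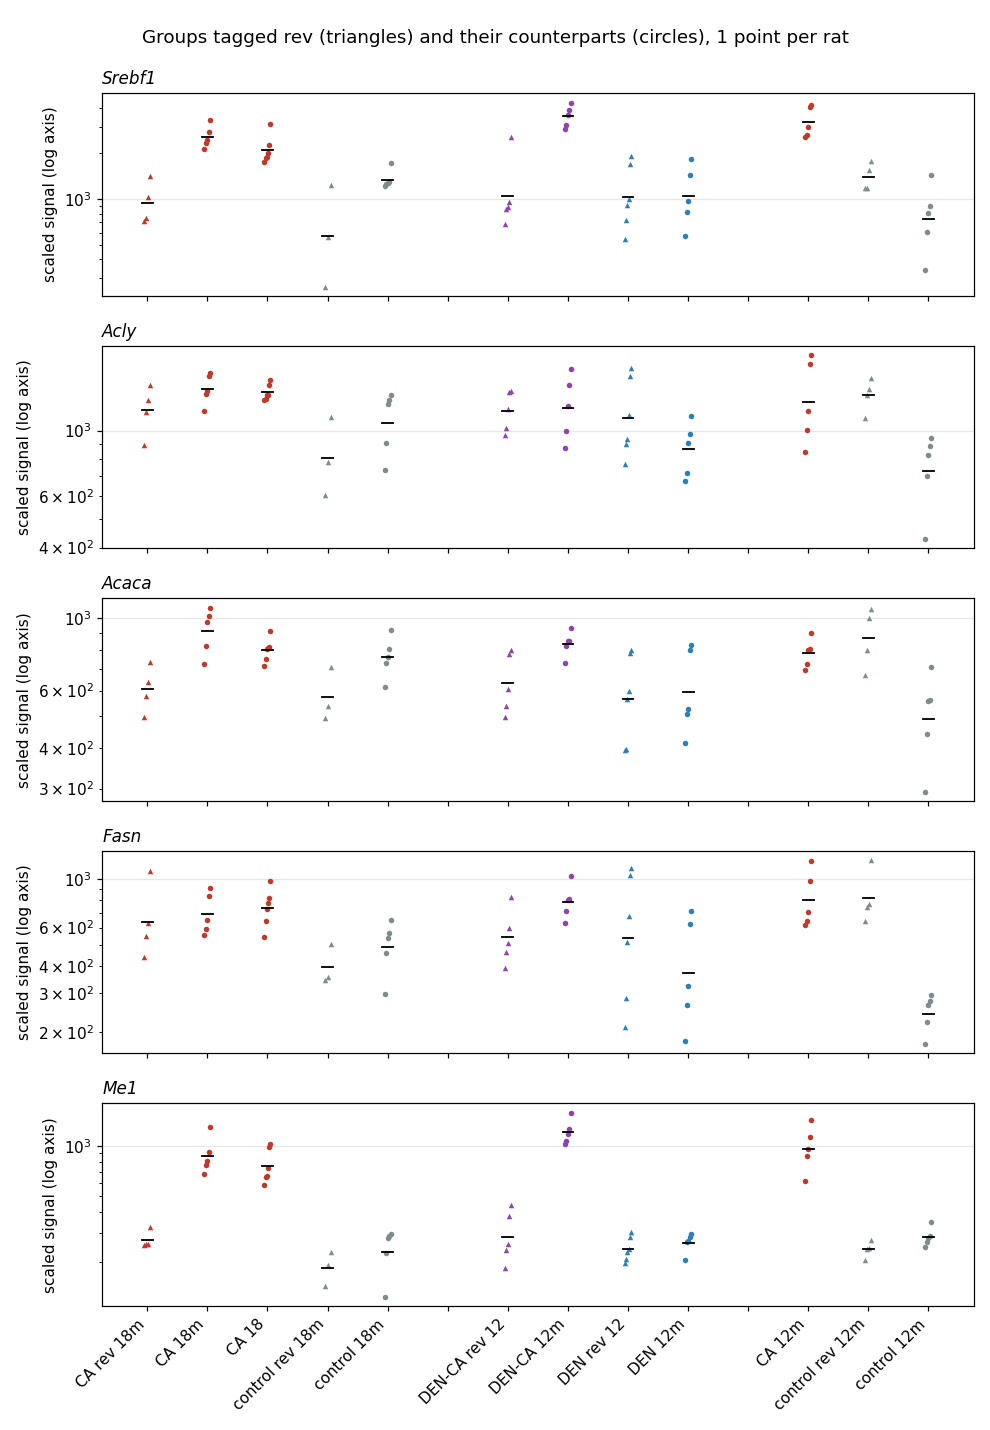
Scaled signal (log axis) of each gene in single rats of the rev groups and of the groups of the same arm without the tag, with a bar at the group's geometric mean and triangles for rev. Srebf1 and Me1 of CA rev and DEN-CA rev rats lie below those of CA 18m and DEN-CA 12m rats, while Acly and Fasn overlap.

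Against rev controls, none of the 5 genes passed in CA rev rats at 18m (0.734% of all probe sets) or in DEN-CA rev rats against DEN rev rats (0.121%). In the CA comparison the log2 fold changes were 0.69 for Srebf1, 0.52 for Acly, 0.07 for Acaca, 0.65 for Fasn and 0.49 for Me1. The 4 CA rev rats and 3 rev controls did not overlap in Me1 (252, 256, 257 and 324 against 144, 192 and 229), with a 95% interval from 0.01 to 0.98. The difference between the drug effects with rev and without was tested directly. At 18m it was called for Me1 alone of the 5 genes, -1.31 ± 0.32 (adjusted p = 0.00924; 1.46% of all probe sets). For Srebf1 the difference at 18m was -0.24 and did not pass. In the DEN-CA arm it was called for Srebf1, -1.70 ± 0.44 (adjusted p = 0.0125), and Me1, -1.88 ± 0.28 (adjusted p = 3.9e-07), with 2.3% of all probe sets. The Srebf1 call there was lost without DEN rat 4076 (-1.49, adjusted p = 0.0552).

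The rev controls themselves differed from the controls without the tag, in a comparison added after the data were seen. At 12m Fasn had 645, 744, 770.3 and 1222 in control rev rats, against 176, 222, 264, 277 and 294 in controls. Every rev control was above every other control, at 1.66 ± 0.33 (adjusted p = 0.00585), and Acaca rose by 0.79 ± 0.18 (adjusted p = 0.0328), so 2 of the 5 genes were called beside 0.121% of all probe sets. With the rev controls in place of the controls at 12m, CA against control was -0.03 for Fasn, -0.08 for Acly and -0.15 for Acaca, and Srebf1 (1.18) and Me1 (1.91) stayed called, beside 12.7% of all probe sets. The 12m rise of Fasn, Acly and Acaca under CA therefore held against only 1 of the 2 control groups of that label time. With DEN rev rats in place of DEN rats at 12m, DEN-CA against DEN was called for Srebf1 (1.75), Me1 (2.22) and Acaca (0.54, adjusted p = 0.0208) but not for Fasn, beside 10.5% of all probe sets.

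At 18m, 1 of the 5 genes, Srebf1, fell in control rev rats (-1.19 ± 0.37, adjusted p = 0.0222; 9.79% of all probe sets), which had 264, 558 and 1244 against 1223, 1249, 1272, 1287 and 1714 in controls. With these 3 rats as the reference, 4 of the 5 genes were called for CA at 18m, Srebf1 (2.12), Acly (0.76), Acaca (0.65) and Me1 (2.09), beside 16.9% of all probe sets. The summed signal of the 3 Kupffer cell markers on the array (of 6 listed) was 5515 to 7508 in control rev rats of 18m, against 2125 to 4909 in controls of 18m. The stellate cell sum (978 to 1615 against 732 to 957) and the acinar sum (369 to 878 against 208 to 345) were higher and apart as well. The part of these cells in the result was not tested. None of the 5 genes passed between DEN rev rats and DEN rats of 12m (0.0323% of all probe sets).

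The 6 CA rats labelled 18 were compared with controls of 18m. Me1 rose, with a lowest, median and highest signal of 579.6, 697 and 1033 in those CA rats, against 123, 225, 278, 285 and 295 in controls. The groups did not overlap, at 1.60 ± 0.19 (3.04-fold, adjusted p = 3.6e-11), and Me1 was the 1 gene of 5 called, beside 23.2% of all probe sets. Srebf1 had 0.65 ± 0.30 (adjusted p = 0.115), with a lowest, median and highest signal of 1749, 1948 and 3142 in the CA rats and 1223, 1249, 1272, 1287 and 1714 in controls. Those ranges did not meet either. The second Acaca probe set fell there (-0.75) where the first had 0.07, so Acaca has no settled direction in these rats.

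TU sections were compared with the untagged section of the same rat, averaging several TU sections of 1 rat. In the DEN-CA arm, 4 of the 5 genes were called, 1 higher and 3 lower, beside 29.6% of all probe sets. Srebf1 was lower in TU sections of 7 of 7 rats, at -0.68 ± 0.18 (adjusted p = 0.00729), with a lowest, median and highest signal of 599, 1704 and 3938 in TU sections and 854, 2965 and 4325 in the untagged sections. The ranges overlapped between rats while every within-rat difference had the same sign. Acaca was lower in 7 of 7 rats (-0.34 ± 0.12, adjusted p = 0.0301) and Me1 in 6 of 7 (-0.38 ± 0.14, adjusted p = 0.0417).

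Fasn went the other way in these sections. Its TU signals ran from 473 over a median of 1049 to 1425, against 405, 588 and 802 in the untagged sections, and it was higher in TU sections of 5 of 7 rats. It rose by 0.64 ± 0.21 (1.56-fold, adjusted p = 0.0276). In the other 2 rats the differences were -0.42 (rat 4106) and -0.10 (rat 4111). Acly was higher in 6 of 7 rats but did not pass (0.35 ± 0.14, adjusted p = 0.0769). Of the 4 calls, Srebf1 kept its call without any 1 rat, and the other 3 were each lost without at least 4 of the 7 rats. With the other probe sets 1 of the 5 genes was called in these sections in place of 4. With the rat as a random block none of the 5 genes passed (Srebf1 -0.81, adjusted p = 0.0556), beside 2985 of all probe sets.

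In the CA arm none of the 5 genes passed in TU sections, beside 3.74% of all probe sets. Srebf1 had -0.52 ± 0.16 (adjusted p = 0.0672) and was lower in 8 of 9 rats, Me1 had -0.41 ± 0.12 (adjusted p = 0.0637) and was lower in 8 of 9, and Acaca had -0.27 ± 0.10 (adjusted p = 0.131) and was lower in 7 of 9. Rat 4137 was the 1 rat with higher Srebf1 (0.49) and higher Me1 (0.40). Its untagged section was also the lowest of its group in Me1 (613) and the highest in Fasn (1215), and its TU section and PERI section had 819 and 896 for Me1 and 630.2 and 633 for Fasn. Without this rat Srebf1 (-0.65), Acaca (-0.34) and Me1 (-0.51) were called lower, and 2504 probe sets were called in place of 432. Without rat 4142, on the other hand, 1 probe set was called. Of the markers of other cells, Clec4f (-1.19) and C1qa (-0.45) fell and Fabp4 rose (1.54) in these sections.

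**Figure D4:**
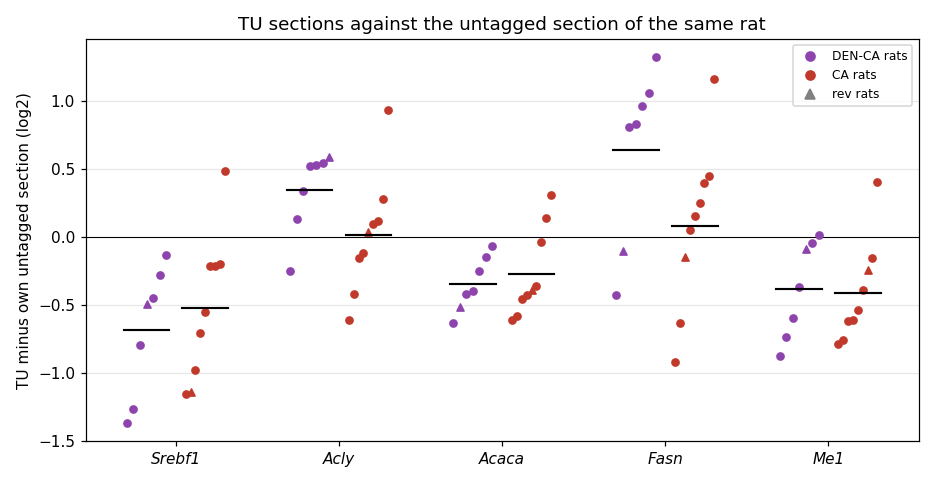
Difference of log2(signal + 25) between TU sections and the untagged section of the same rat, 1 point per rat, for the DEN-CA arm (7 rats) and the CA arm (9 rats), with a bar at the mean and triangles for rats of rev groups. All 7 DEN-CA rats lie below 0 for Srebf1 and Acaca, and 5 of them lie above 0 for Fasn.

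The difference between the arms in TU sections was tested and called for none of the 5 genes (0% of all probe sets, 1812 of them at an unadjusted p under 0.05). For Fasn it was 0.55, with a 95% interval from -0.03 to 1.14. PERI sections of 5 rats differed from the untagged sections in none of the 5 genes (0% of all probe sets, 283 of them at an unadjusted p under 0.05), with log2 differences between -0.11 and 0.12. Set against control livers of 18m, TU sections of 4 CA rats of 18m had higher Me1 (1.31 ± 0.22, adjusted p = 0.00218) and Fasn (0.83 ± 0.20, adjusted p = 0.0162), 2 of the 5 genes beside 18.4% of all probe sets. The Fasn call there was lost without rat 4143 (0.76), and Srebf1 passed without rat 4150 (0.57). In the same comparison 4 of the 5 hepatocyte markers fell, Apoa1 (-0.65), Serpina1 (-0.34), Ttr (-0.31) and Alb (-0.23), with sums of 37626 to 53340 in the TU sections and 53433 to 57027 in control livers. Clec4f (-1.75) and C1qa (-1.06) of the Kupffer cell markers fell (sums of 937 to 2916 against 2125 to 4909), and Epcam (1.53) and Cela1 (3.84) rose. The part of these cells in the Me1 and Fasn results was not tested.

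Markers of other cells moved in the same TU sections of the DEN-CA arm. Of the 3 Kupffer cell markers on the array (of 6 listed), C1qa fell by 1.09 and Clec4f by 2.31, and their summed signal was 785 to 989 in TU sections of 9m, against 1482 to 2336 in untagged sections of 9m. Of the 4 adipocyte markers on the array (of 7 listed) Fabp4 rose (1.47) and Cfd fell (-0.91), with a sum of 356 to 372 against 265 to 386 at 9m. The 8 pancreatic acinar markers summed to 1619 to 2193 in TU sections of 9m, against 716 to 1420 in untagged sections, and to 1250 and 21388 in the TU sections of DEN-CA rev rat 4111. Of the 4 acinar markers tested 2 were called higher, and of the 6 stellate cell markers 2 were called higher and 1 lower. The hepatocyte markers overlapped (48535 to 72696 against 40093 to 68169 at 9m), and no marker of the 5 was called. The part of these cells in the results was not tested. With rats of rev groups left out, Srebf1 (-0.72), Fasn (0.76) and Me1 (-0.43) stayed called and Acaca (-0.32) did not.

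Other genes of the pathway were counted from lists drawn up with earlier results of these data known. At the 11 time points counted here and below, 6.78% to 16.2% of all tested probe sets were called in either direction. Of 7 elongases and desaturases tested, between 3 and 5 rose at each CA time and between 2 and 5 at each DEN-CA time. Scd2, a stearoyl-CoA desaturase that puts the first double bond into saturated fatty acids, rose at 9 of 11 time points, by 3.57 to 4.69, and was not called at 5j in either arm. Its CA effect was larger at 12m than at 5j by 4.10 ± 0.46 (adjusted p = 3.5e-11). Fads2, the desaturase that starts the synthesis of long polyunsaturated fatty acids, rose at 11 of 11, by 1.48 to 2.67, and Fads1 at 9. Elovl5, an elongase, fell at 2, by 0.62 each. In rev rats, Scd2 fell against the groups without the tag (-3.38 at 18m, -3.47 in DEN-CA), as did Fads2 (-1.30 and -2.21).

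Of the 6 genes that control SREBP processing, Insig1 rose at 5 of 11 time points and Insig2 fell at 3. Insig1, itself a known SREBP target, rose by 1.31 ± 0.31 at 3m and 1.97 ± 0.31 at 12m under CA, and by 0.96, 1.57 and 1.89 at 1m, 3m and 12m under DEN-CA. Insig2 fell by 0.68 at 5j and at 1m under CA and by 0.67 at 1m under DEN-CA. Srebf2, Scap, Mbtps1 and Mbtps2, which encode the sister factor, the escort and the 2 cleaving proteases, were called at 0 of 11. In TU sections of the DEN-CA arm Insig2 fell by 1.31 and Srebf2 by 0.37.

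Of 9 other regulators of lipogenesis tested, Thrsp, a lipogenic gene responsive to thyroid hormone, rose at 5 of 11 time points, by 1.07 to 1.29. Mlxipl, which encodes the glucose-responsive factor ChREBP, rose at 5j under CA (0.74) and at 1m under DEN-CA (0.56). Nr1h3, which encodes LXRalpha, was called at 1 time point (0.45). In TU sections Thrsp fell in both arms (-0.84 in the DEN-CA arm, -1.11 in the CA arm), and Mlxipl (-0.52) and Nr1h3 (-0.39) fell in the DEN-CA arm. Of 7 genes that supply acetyl-CoA, citrate or NADPH, the pentose phosphate enzyme Tkt rose at 6 of 11, by 0.46 to 0.64, while Acss2, Pgd, Taldo1 and Cs rose at 1 each. Idh1, which also makes NADPH, and the citrate carrier Slc25a1 were called at none.

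Genes that carry fatty acids onward split in direction. Of 5 genes of triglyceride assembly tested, Dgat1 rose at 9 of 11 time points (0.41 to 0.71) and Dgat2, the other enzyme of the last step, fell at 6 (-0.98 to -0.45), while Agpat2 fell at 4 and Lpin1 rose at 2. Acacb, the carboxylase of the mitochondrial surface, rose at 4 of 11 (0.65 to 0.85). In the glycolytic feed Pfkfb1 rose at 4 and Pklr, pyruvate kinase, fell at 3. The 5 genes of the PPARalpha target panel measured, Acot1, Ehhadh, Cpt1b, Cyp4a1 and Vnn1, rose at 11 of 11 time points and fell in both comparisons of rev with untagged groups, as Me1 did.

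The 5 genes did not vary alike. Over the means of the 30 untagged groups, which share arrays and drug differences, Srebf1 and Me1 correlated at 0.909 and Fasn and Acaca at 0.885, Fasn and Acly at 0.835 and Acly and Me1 at 0.324. Within groups, over 148 arrays with group means removed, Srebf1 and Me1 had 0.118, while Fasn and Acly had 0.751 and Fasn and Acaca 0.589. These are descriptions with no test. Among 8732 other genes, those whose group means ran most like Me1 were Hdc (0.974), Fads2 (0.971), Acat1 (0.970), Slc3a2 (0.968) and Aqp3 (0.966). For Srebf1 they were Hspa9 (0.934), Cox15 (0.916), Fads2 (0.913), Me1 and Dhdds (0.906). For Fasn they were Acaca, Acly, Thrsp (0.821), Srsf6 (0.820) and Secisbp2l (0.818), for Acaca, after Fasn, they were Lpcat3 (0.879), Commd6 (0.870), Pmpca (0.864) and Pdha1 (0.861), and for Acly, after Fasn, they were Vps50 (0.808), Stbd1 (0.801), Pdk1 (0.777) and Glyr1 (0.772).

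Ordered by mean log2 value over the 30 untagged groups, the 12 CA and DEN-CA groups without rev took the first 12 places for Srebf1 and for Me1. Srebf1 began with CA at 3m (4655 ± 1641, SD, n = 5) and ended with control rev at 18m (689 ± 503, n = 3). Me1 began with CA at 1m (1767 ± 545, n = 5) and ended with DEN at 1m (178 ± 34.3, n = 5). Between its place 12 (CA labelled 18, 773 ± 188, n = 6) and place 13 (DEN-CA rev, 299 ± 105, n = 5) lay a gap of 1.33 on the log2 scale, against a pooled SD of 0.41, and no other neighbours in the Me1 order differed beyond their pooled SD.

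The other 3 genes mixed the arms. Fasn began with control rev at 12m (845 ± 257, n = 4), ahead of CA at 12m (831 ± 258, n = 5), and ended with DEN at 3m (177 ± 65.8, n = 5). Acaca began with DEN-CA at 3m (1065 ± 138) and ended with DEN at 3m (411 ± 60.0, n = 5 each), and its place 4 was control rev at 12m (885 ± 182, n = 4). Acly began with CA at 9m (1505 ± 266) and ended with DEN at -8 (675 ± 80.3, n = 5 each), and controls of 9m (1266 ± 300, n = 5) held place 7. No neighbours in the Acly and Acaca orders differed beyond their pooled SD. In the Srebf1 order only CA at 18m and CA labelled 18 did, and in the Fasn order only the last pair.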

How the data were processed

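RNA of rat liver sections was measured on Affymetrix arrays. The authors deposited linear intensities, 1 per probe set and array, made with MAS5 per the submitters' processing notes. A version, a scaling target and a handling of replicates are not given in the sources used here. Groups, times, rat numbers and tags came from the labels. The 5 genes, the lists of other genes and the comparisons were chosen with earlier results of these data known, including the calls of several members.

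Each array was scaled to a median of 99.35, so levels are relative to the middle probe set, and 25 was added before log2, which makes fold changes of dim genes smaller. Probe sets above the 40th percentile of their array on at least 3 arrays were kept (12393 for untagged sections). Group means of 148 sections were fitted in limma 3.58.1 (R 4.3.3) with 118 residual degrees of freedom, and eBayes used a trend. Tests were two-sided, with Benjamini-Hochberg adjustment over all probe sets and a threshold of 0.05. TU and PERI sections were paired with the untagged section of the same rat by the rat number, and these differences were fitted.

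Genes were named through Entrez identifiers for 12748 probe sets, accessions for 2 and array names for 33, while 312 had several genes and 2827 none. Named genes are the 5 members and, of the lists, those with the smallest adjusted p at a comparison. Alternatives were quantile normalization or none, offsets of 6 and 99, no filter or a 70th percentile filter, the B suffix, other probe sets, fewer groups, array weights and leaving out single rats. The code was tested on simulated data. The number of arrays limits the precision.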

Additional observations from a re-analysis of the deposited data

Results flagged for a closer look

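Of 145 sets of 1 gene in 1 group of 4 to 6 rats, 10 held a rat whose gap to its nearest neighbour took up an unusual share of the group's range. Chance gives about 1 in 20. For Srebf1 these were control rat 4036 at 18m, with a signal of 1714 against 1223 to 1287 in the other 4, and DEN-CA rev rat 4113, with 2570.5 against 679.7 to 956. For Acly they were CA rat 4118 at 5j (469, others 785 to 913), DEN rat 4056 at 5j (580.4, others 793 to 897) and DEN-CA rat 4097 at 3m (1020.3, others 1296 to 1419). CA rat 4118 at 5j was also low in Acaca (493, others 757 to 831), and DEN rat 4056 at 5j in Fasn (145, others 283 to 328). For Me1 they were CA rev rat 4146 at 18m (324, others 252 to 257), DEN rat 4050 at -8 (304, others 187 to 214) and DEN-CA rat 4102 at 9m (1266, others 694 to 825).

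Drug effects that differed between groups with and without rev, by the test of the difference itself, were those of Me1 at 18m (-1.31 on the log2 scale) and of Srebf1 (-1.70) and Me1 (-1.88) in the DEN-CA arm.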

How the results depend on the processing

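Of the members' values under the alternatives run, 4074 kept their side of the threshold, 70 passed where they had not, 107 no longer passed and 4 that were called changed sign. Of the 4074, 175 changed sign without being called in either setting, 22 of them without scaling and 84 with 1 rat left out. No value of Me1 for CA against control or DEN-CA against DEN lost its call in any of them (1.28 to 3.29). The cause of the changes below was not tested. The sign changes of called values were Fasn (-0.032), Acly (-0.080) and Acaca (-0.15) at 12m under CA with the rev controls, and Acaca (-0.75) in CA rats labelled 18 with its other probe set.

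Counts of the 5 genes called that moved by over 1.5 times were as follows, and 27 others moved by 1 gene, 13 up and 14 down. Without scaling, the median of all probe sets moved by -0.69 to 0.50 on the log2 scale, 8280 of them were called for CA at 3m in place of 1762, and the counts were 1 at 5j, 2 at 3m, 1 at 9m and 3 at 12m for CA, 1 at 5j for DEN-CA, 0 for both differences between rev and no rev, and 1 for TU sections of the DEN-CA arm. Quantile normalization gave 4 at 1m and 2 at 18m for CA, 5 at 12m for DEN-CA and 1 for CA at 12m minus 5j. Array weights gave 2 at 18m for CA, 5 at 12m for DEN-CA, 2 between control 18m and 5j and 2 in CA rats labelled 18. Fits of only the groups compared gave 2 at 18m for CA, 2 between control 18m and 5j, 0 for the difference by rev at 18m and 3 in CA rats labelled 18. The offset of 99 gave 2 at 18m for CA, and the 70th percentile filter 2 at 18m, 1 for CA at 12m minus 5j and 2 in TU sections of the CA arm. The other probe sets gave 2 at 18m for CA, 2 at 5j for DEN-CA, 3 in CA rats labelled 18, and 1 in TU sections of each arm. Arrays without the B suffix, which leave fewer rats, gave 1 at 9m for CA (533 over all probe sets in place of 840). They gave 1 at 5j for DEN-CA (774 in place of 1302). At 1m, 3m and 9m for DEN-CA and between control 18m and 5j they left 1 array in a group, so no count is given. The suffix as a covariate gave 2 between control 18m and 5j (1871 over all probe sets in place of 895). With the rev controls the counts for CA were 2 at 12m and 4 at 18m (1576 and 2093 over all probe sets).

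Without the replicate block, or with the rat as a random block, 0 members were called in TU sections of the DEN-CA arm (Srebf1 adjusted p = 0.0787 and 0.0556). Over all probe sets 2580 and 2985 were called there. The pairing there comes from the rat number, and no other block was possible because the other groups share no rats.

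With single rats left out, the counts for CA were 2 to 4 at 5j (1031 to 1368 over all probe sets) and 2 to 3 at 1m (1421 to 1818). They were 3 to 4 at 3m (1380 to 1844) and 1 to 3 at 9m (606 to 840). The last were 4 to 5 at 12m (982 to 1449) and 1 to 2 at 18m (663 to 901). For DEN-CA the counts were 2 to 4 at 5j (965 to 1274 over all probe sets), 3 to 4 at 1m (1562 to 2303) and 5 at 3m (1334 to 1826). They were 1 to 3 at 9m (617 to 772) and 2 to 4 at 12m (664 to 810). The counts were 0 to 1 for CA at 12m minus 5j (185 to 312 over all probe sets) and 1 to 2 between control 18m and 5j (513 to 908). They were 2 to 3 for rev against CA at 18m (1251 to 1856) and 1 to 2 for the difference by rev in the DEN-CA arm (212 to 359). In TU sections they were 1 to 3 in the DEN-CA arm (2540 to 3309) and 0 to 3 in the CA arm (1 to 2504). TU sections of CA at 18m against control livers had 1 to 3 (1167 to 2281). Scaling to the median hides shifts common to most genes, and 5 rats a group leave changes near 0.5 log2 often uncalled.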
